A study of Zea mays with 6 samples.

Results

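The 200 maize probes described here were those whose signal was most depleted in pre-meiotic cells cut from W23 anthers, relative to whole anthers that also hold the somatic tissue. They were chosen from 27863 probes, out of 42034 on each array, that the scanner software called well above background in both W23 groups on both arrays, with no outlier flag and without the probes bearing Zm or MUDR names. For each array the log2 ratio of the processed signals, pre-meiotic over whole, was taken, and the probes were ranked by the larger (less extreme) of the 2 ratios. The W23 ratios below therefore describe how the probes were chosen and are given with no test. What the choice did not use is the mac1 array, on which the same probes were followed. Other probes of the same sequences are given too, but 7 of these 20 were ranked by the same rule and fell past its limit.

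A maize anther lobe holds pre-meiotic (archesporial and pollen mother) cells in its centre, surrounded by somatic wall layers: epidermis, endothecium, middle layer and tapetum, the tapetum being the secretory layer that feeds the developing germ cells. MAC1 (multiple archesporial cells1) is a small secreted protein that limits how many cells take the germinal fate and promotes formation of the somatic layers next to them. In its absence an anther lobe holds excess germinal cells and lacks properly organised inner wall layers.

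The samples were 6 RNAs on 3 two-colour Agilent arrays. Wild-type W23, an inbred line, gave 2 samples of whole anthers and 2 of pre-meiotic cells cut out by laser, at 700 µm anther length per the titles (another label gives 701 µm for replicate 2) and, per the design text, at the same stage and from the same individual plants. A mac1 mutant and a mac1 heterozygote, which the design text calls wild type, each gave 1 sample of laser-microdissected pre-meiotic cells from anthers 1 mm long. On the replicate 1 array whole anthers carried Cy5 and pre-meiotic cells Cy3, on the replicate 2 array the dyes were swapped, and on the mac1 array the mutant carried Cy5 and the heterozygote Cy3. RNA came from whole anthers by TRIzol and from dissected cells by PicoPure column, and all of it was linearly amplified, so the effects of tissue and of extraction on a W23 ratio cannot be told apart. The labels do not say how many plants stand behind each sample.

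Whole anthers had 82.5% and 84.3% of all probes well above background, the W23 pre-meiotic samples 73.9% and 77.7%, the heterozygote 72.9% and the mutant 64.4%. As a check of the label, the 3 probes for AM1 (ameiotic1, needed for entry into meiosis) were higher in the W23 dissected cells, at mean log2 ratios of 0.40 ± 0.05, 1.18 ± 0.23 and 1.11 ± 0.23 (SD, n = 2 arrays). The other fixed pre-meiotic markers had no probe of their name, so this check rests on AM1 alone. No probe carried the name of any of the fixed tapetum, wall, epidermis or green-tissue markers, so the somatic side of the label could not be checked by name. In these bulk samples, fewer cells of a type and less RNA per cell cannot be told apart.

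The 200 probes stand for 197 sequences. Of these probes, 184 (92%) bore the name of an expressed sequence tag cluster (TC numbers), against 72.9% of the probes that could have been chosen, and 16 by single sequence accessions. None of the 200 names matched an entry of the B73 reference gene table, so the transcripts are given by their sequence names, with no gene, function or position.

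By the values of the rule, the log2 ratios ran from -8.52 to -3.67 on the replicate 1 array (median -4.80) and from -6.90 to -3.65 on the replicate 2 array (median -4.54). Of the 200 probes, 135 were at least 16-fold lower on both arrays (0.485% of the probes that could be chosen) and 9 were at least 64-fold lower. The limit fell at a larger ratio of -3.65 (12.5-fold), with TC301573 and TC302109 just inside and TC304802 and TC289200, both at -3.64, just outside. The probe at rank 1, TC312766, had processed signals of 8987 and 7883 scanner units in whole anthers replicates 1 and 2 against 54.7 and 65.9 in the pre-meiotic samples. Its ratios of -7.36 and -6.90 put it at least 119.7-fold lower on each array. The larger ratios of the next 9 probes lay between -6.41 and -5.95.

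**Figure D1:**
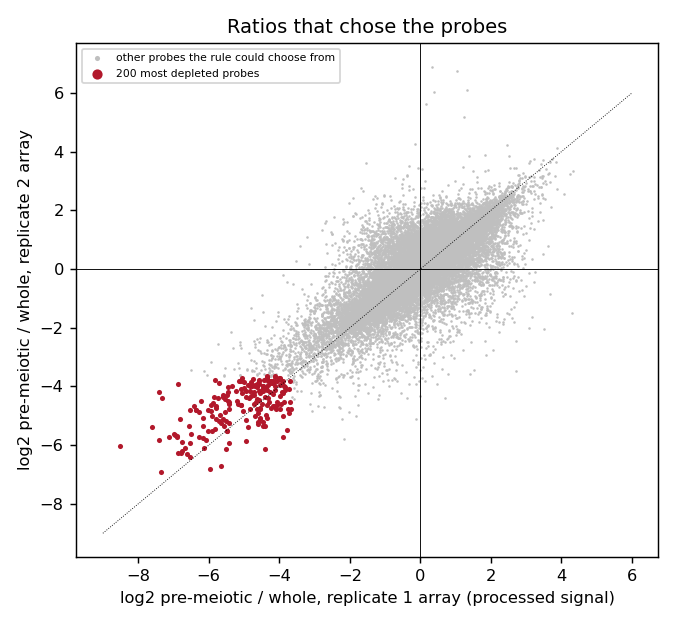
Log2 ratio of W23 pre-meiotic cells over whole anthers from processed signals, replicate 1 array on the x axis and replicate 2 array on the y axis, one point per probe. The 200 chosen probes (red) fill the lower left corner below -3.65 on both axes, and the other probes that could be chosen are grey.

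The arrays did not give the same size of depletion. The ratio was lower on the replicate 1 array for 146 of the 200 probes, the median gap between arrays was 0.61 on the log2 scale, and 53 probes differed by more than 1. Across the 200, the ratios of both arrays correlated at 0.577 (Pearson), against 0.785 over all 27863, points that share the same slide and samples. The rule cut both ratios at a common limit, which narrows their range among the 200, so these correlations cannot be compared as agreement. The counts of 146 and 53 were not taken over all probes that could be chosen. The widest gap was that of AJ292961, at -7.41 on replicate 1 and -4.18 on replicate 2. Its pre-meiotic signal was 233 units in replicate 1 and 2655 in replicate 2, while its whole-anther signals were 39676 and 47979. TC304105 followed, at -6.86 and -3.90, with pre-meiotic signals of 57.7 and 399 units. In both probes the arrays differed more in the dissected cells, the dimmer side of the ratio, than in whole anthers.

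To compare all 6 samples, levels were taken on a log2 intensity scale with an offset of 50 units, loess within arrays and average intensities matched between arrays (Aquantile). Before loess and Aquantile no value can lie below 5.64, the log2 of the offset, and these steps can then shift values. The offset draws ratios of dim probes towards 0, so depletion reads smaller than by processed signals. The mean log2 ratio of the 200 probes ran from -5.76 to -0.92, with a median of -2.77, against -4.74 with processed signals, and the median SD between the arrays was 0.21 (n = 2). Of the 200, 197 were at least 2-fold lower on both arrays (5.41% of all that could be chosen) and 137 at least 4-fold lower (1.07%). The whole-anther samples spread widely, from 6.86 to 13.94 in replicate 1 with a median of 9.09 and from 6.94 to 13.83 in replicate 2 with a median of 9.19. The pre-meiotic samples were packed near the floor, with medians of 6.39 and 6.20 and maxima of 9.06 and 10.14, and 126 and 142 probes stood under 6.5.

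TC312766 had levels of 9.80 and 9.62 in whole anthers and 6.31 and 5.93 in W23 pre-meiotic cells. TC279794, at rank 5, was the brightest of the first 10, with levels of 12.76 and 11.92 in whole anthers and 7.08 and 6.84 in pre-meiotic cells. Its mean ratio was -5.38 ± 0.42 (SD, n = 2 arrays, 41.6-fold lower). CO468192, at rank 10, had levels of 9.13 and 8.40 in whole anthers and 6.30 and 5.89 in pre-meiotic cells, a ratio of -2.67 ± 0.23 on this scale although its processed ratios were -5.95 and -6.81. Rank by the rule and fold on this scale thus order the same probes differently. The steepest on this scale was BE512404, at rank 16, with levels of 13.27 and 12.90 in whole anthers and 7.25 and 7.41 in pre-meiotic cells (54.2-fold lower).

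Levels in the dissected cells of the other genotypes came from another slide and another RNA, and no mac1 value entered the choice. Both mac1 samples stood on the pre-meiotic side. The heterozygote level lay below both whole-anther samples for 199 of the 200 probes, against 42.9% of the probes that could be chosen, and so did the mutant level for 199, against 43.7%. Since the probes were chosen as high in those whole-anther samples and low in W23 pre-meiotic cells, part of this separation is fixed by the choice. The median level was 6.63 in the heterozygote (range 5.75 to 10.68) and 6.61 in the mutant (range 5.71 to 11.65). Over the 200 probes, the heterozygote stood a median of 2.45 below the mean of whole anthers, and the mutant 2.36 below.

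**Figure D2:**
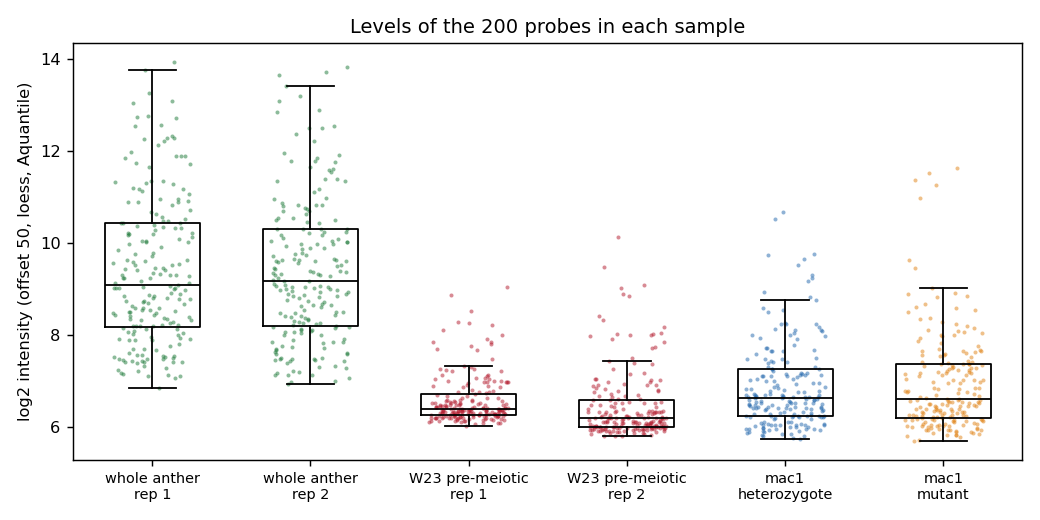
Log2 intensity (offset 50, loess, Aquantile) of the 200 probes in each of the 6 samples, one point per probe, with the box at the quartiles, the line at the median and whiskers to the last value within 1.5 box heights. Medians were 9.09 and 9.19 in whole anthers, 6.39 and 6.20 in W23 pre-meiotic cells, 6.63 in the mac1 heterozygote and 6.61 in the mac1 mutant.

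The mac1 samples were not as low as W23 pre-meiotic cells on this scale. The heterozygote level lay above both W23 pre-meiotic samples for 123 probes (41.7% of those that could be chosen), between them for 50 and below both for 27 (38%). In the mutant these numbers were 119 (41.5%), 49 and 32 (40.2%). The median difference from the mean of the W23 pre-meiotic samples was 0.28 for the heterozygote and 0.26 for the mutant, while the W23 pre-meiotic samples differed from each other by a median of 0.23. Both medians stayed above 0 with each other processing of the scanner signals over all 200 probes. In the authors' deposited table, over the 114 probes above 0 in all 6 samples, the median differences were -0.36 and -0.27, while the processing used here gave 0.45 and 0.59 over the same 114, an alternative chosen after seeing the data. The choice of probes as low in W23 pre-meiotic cells fixes part of this direction, and slide, scan, anther length, genotype and RNA sample cannot be told apart here.

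In some probes the mac1 levels passed the midpoint between the W23 groups. In the heterozygote 4 probes did, TC302254, TC313658, TC296444 and TC313819, and in the mutant 14 did, with 3 probes in common. The share over all probes that could be chosen was not counted, so these numbers are not read as particular to the members. TC302254 had levels of 10.68 and 10.32 in whole anthers, 6.88 and 6.91 in W23 pre-meiotic cells, 9.32 in the heterozygote and 8.61 in the mutant. TC296444 stood at 8.85 and 9.02 in whole anthers, 6.23 and 6.10 in W23 pre-meiotic cells, 8.14 in the heterozygote and 8.83 in the mutant. Both mac1 samples were nearer to whole anthers than to W23 pre-meiotic cells for TC296444, while for TC302254 the mutant level fell just short of the midpoint. TC302254, TC296444 and TC313819 were singled out after their values were seen.

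TC313658 was the single probe whose mac1 levels exceeded the whole anther. It stood at 7.33 and 7.85 in whole anthers, 6.29 and 6.04 in W23 pre-meiotic cells, 9.19 in the heterozygote and 11.39 in the mutant. Its depletion in W23 pre-meiotic cells was shallow on this scale, at a log2 ratio of -1.43 ± 0.54 (SD, n = 2 arrays), and its rank by the rule was 152. A second probe of the same sequence name was well above background in both mac1 samples but in no W23 sample, so its W23 ratio says little about depletion. It stood at 5.99 and 5.76 in whole anthers, 5.71 and 5.73 in W23 pre-meiotic cells, 6.07 in the heterozygote and 6.17 in the mutant.

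Mutant and heterozygote were compared within the mac1 array, with 1 sample each, no dye swap and so no test. A probe counted as measured there if it was well above background in at least 1 channel, which held for 193 of the 200: 168 in both channels, 22 in the heterozygote only and 3 in the mutant only, with 7 in neither. Detection in the heterozygote was 95% of the 200 against 94.2% of the probes that could be chosen, and in the mutant 85.5% against 87.3%, so the shares were close. For the 25 probes seen in 1 channel only, the lower bound on the log2 difference was taken on the scale with the offset. It did not exceed 0.48, so a difference of 2-fold was established for 0 of them on that scale. The offset draws such dim probes towards 0 and so limits this bound, which cannot decide whether they differ. CK327320, with the bound of 0.48, read 206 units in the heterozygote and 22.5 in the mutant by processed signals (median-centred log2 ratio -3.32).

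As a group, the depleted probes had a median log2 ratio of mutant over heterozygote near 0, at -0.0056 against -0.012 for the 26758 measured probes that could be chosen, with 95 probes above 0 and 98 below. Their spread was wider, with an SD across probes of 0.54 against 0.31. Of the 193, 11 exceeded the heterozygote by 2-fold or more in the mutant (5.70%, against 0.781% of all 32266 measured probes and 0.908% of those that could be chosen), and 3 were at least 2-fold lower (1.55%, against 0.555% and 0.65%). These 14 (7.25%, against 1.34% and 1.56%) were well above background in both channels. With processed signals, which carry no offset, 34 were higher (17.6%, against 7.48% of all measured probes and 6.76% of those that could be chosen) and 58 lower (30.1%, against 14.8% and 14.7%). That made 92 either way (47.7%, against 22.3% and 21.4%). With median centring in place of loess the counts were 6 and 5, with no share over all probes taken. Which side was larger therefore changed with the processing. Of the 14, 9 (6 higher and 3 lower) were past 2-fold in all 4 processings tried, a count not taken over all probes.

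**Figure D3:**
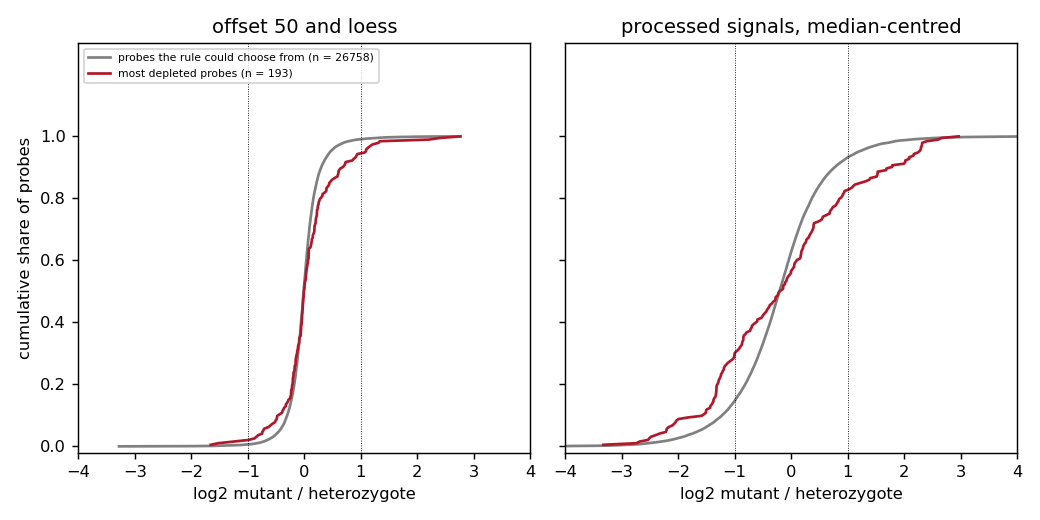
Cumulative share of probes (y axis) by log2 ratio of mac1 mutant over heterozygote (x axis), with offset 50 and loess on the left and with processed signals on the right. The curve of the 193 measured depleted probes (red) crosses that of the 26758 measured probes that could be chosen (grey) near the median and is flatter on both sides, with 14 probes beyond the dotted 2-fold lines on the left and 92 on the right.

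Among the 11 higher in the mutant, 3 stood apart from the rest. TC311854, at rank 34, had levels of 13.94 and 13.83 in whole anthers, 8.22 and 8.89 in W23 pre-meiotic cells, 8.77 in the heterozygote and 11.53 in the mutant, a log2 ratio of 2.76 (6.77-fold). TC284616, at rank 11, stood at 12.33 and 12.86 in whole anthers, 6.996 and 7.503 in W23 pre-meiotic cells, 9.26 in the heterozygote and 11.65 in the mutant, a log2 ratio of 2.40 (5.26-fold). The heterozygote lay between the W23 pre-meiotic samples for TC311854 and above both for TC284616, and the mutant lay nearer to whole anthers for both without reaching them. TC313658 was the third, at 2.20 (4.59-fold). With processed signals the ratios of these 3 were 2.96, 2.29 and 2.40.

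The other 8 lay between 1.07 and 1.33. TC304105 stood at 8.92 and 9.19 in whole anthers, 6.26 and 6.49 in W23 pre-meiotic cells, 6.95 in the heterozygote and 8.29 in the mutant. TC285586 stood at 11.33 and 11.35 in whole anthers, 7.01 and 7.17 in W23 pre-meiotic cells, 6.88 in the heterozygote and 8.20 in the mutant. The mutant level exceeded both W23 pre-meiotic samples in all 11 and stayed below both whole-anther samples in 10, TC313658 being the exception. The heterozygote level exceeded both W23 pre-meiotic samples in 7 of the 11. These 11 were picked as higher in the mutant, from probes chosen as low in W23 pre-meiotic cells and high in whole anthers. Part of the position of the mutant level is therefore fixed by these choices. On the dye-swapped W23 arrays the mean red over green log2 ratio of these 11, in which dye and replicate differences are mixed, ran from -0.49 to 0.39; the part of dye in the mac1 ratios was not tested.

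The 3 probes lower in the mutant showed another arrangement. TC280505, at rank 18, stood at 13.78 and 13.42 in whole anthers, 7.93 and 7.99 in W23 pre-meiotic cells, 9.67 in the heterozygote and 8.01 in the mutant, a log2 ratio of -1.66. TC294816, at rank 103, stood at 11.90 and 11.79 in whole anthers, 7.13 and 7.92 in W23 pre-meiotic cells, 8.94 in the heterozygote and 7.42 in the mutant, a ratio of -1.52. BE512404 stood at 9.75 in the heterozygote and 8.51 in the mutant, a ratio of -1.25. In all 3 the heterozygote was above both W23 pre-meiotic samples, and the mutant was closer to those samples than the heterozygote was. These 3 were picked as lower in the mutant than in the heterozygote, so part of this arrangement is fixed by that choice. TC293418 and TC281695 came next, at -0.99 and -0.88 (heterozygote 8.83 and 8.25, mutant 7.84 and 7.37), and past 2-fold with each of the other 3 processings. The mean red over green ratio of these 5 on the W23 arrays, in which dye and replicate differences are mixed, ran from 0.21 to 0.45. The part of dye in their mac1 ratios was not tested.

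**Figure D4:**
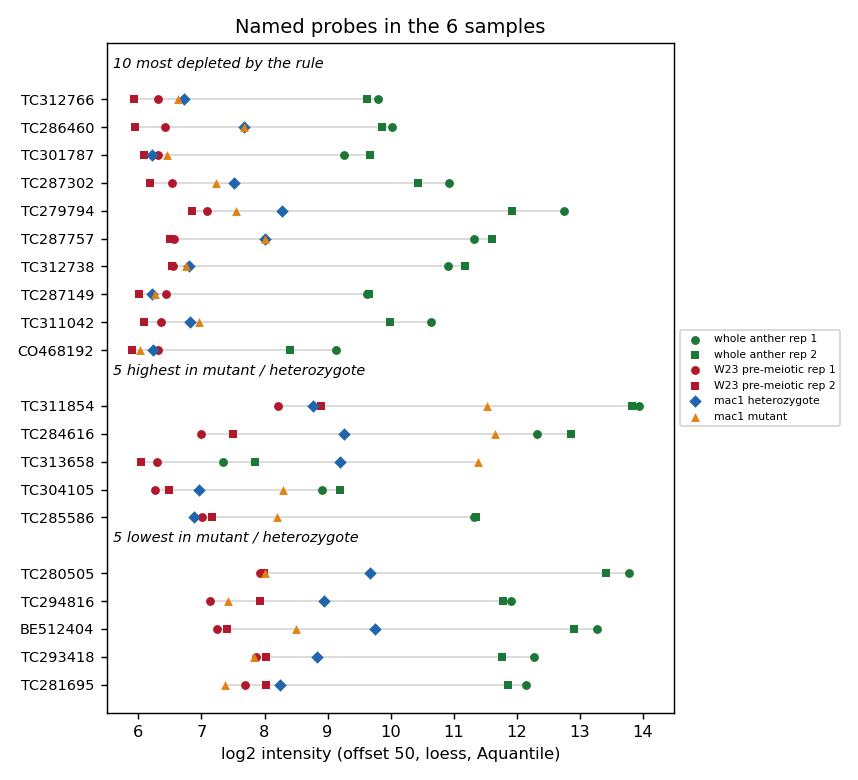
Log2 intensity (x axis, offset 50, loess, Aquantile) of the 10 most depleted probes and of the 5 highest and 5 lowest in mutant over heterozygote, one row per probe and one symbol per sample. Whole anthers (green) lie to the right in every row but that of TC313658, and the mutant (triangle) lies right of the heterozygote (diamond) in the middle block and left of it in the bottom block.

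Depletion in W23 and the mac1 ratio were weakly related across probes. Across the 193 measured probes the mean W23 ratio and the mac1 ratio correlated at 0.072 (Pearson) and 0.124 (Spearman), points that share the probe and its brightness. The first 10 probes by the rule had mac1 ratios between -0.72 (TC279794) and 0.24 (TC301787), none past 2-fold, while with processed signals they lay between -1.59 and 0.85. The heterozygote level exceeded both W23 pre-meiotic samples in 7 of these 10 and the mutant level in 8, and both stayed below whole anthers in all 10. TC286460 and TC287757 were, among these 10, the furthest above both W23 pre-meiotic samples in both mac1 samples. TC286460 stood at 6.42 and 5.94 in W23 pre-meiotic cells against 7.67 and 7.68 in the heterozygote and mutant, and TC287757 at 6.57 and 6.49 against 8.02 and 8.01.

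The mirror set, the 200 probes most enriched in W23 pre-meiotic cells by the same rule turned round, gave other values on the mac1 array. Its median log2 ratio of mutant over heterozygote was -0.14, with an SD of 0.39 across probes. Of its 200 probes, 1 was at least 2-fold higher and 4 lower, against 0.908% and 0.65% of the measured probes that could be chosen. With processed signals these counts were 5 and 40, against 34 and 58 among the depleted probes. The difference between the sets was not tested.

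Some sequences were read by more than 1 probe, and the probes inside the 200 were all chosen on these W23 ratios. TC292328 had 3 probes among the 200, at mean W23 log2 ratios of -3.22 ± 0.17, -3.54 ± 0.06 and -3.76 ± 0.14 (SD, n = 2 arrays), and TC287757 had 2, at -4.93 ± 0.26 and -3.40 ± 0.62. On the mac1 array the TC292328 probes stood at -0.25, -0.04 and 0.32 and the TC287757 probes at -0.01 and -0.06, all within 2-fold.

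For 20 further sequences the array held 1 other probe that was not among the 200. Of these 20, 13 were not well above background in at least 1 W23 sample, and 7 of the 13 were below that level in at least 1 whole-anther sample, so their ratios say little about depletion. By the processed signals, 4 of the 20 were at least 2-fold lower on both arrays. The other probe of TC308121, among the W23 samples well above background in whole anthers only, stood at -4.44 and -4.90. That of TC288606, dim in pre-meiotic replicate 1, stood at -3.32 and -1.25. With loess and offset, which draw dim probes towards 0, 17 of the 20 were within 2-fold on both arrays. The 7 well above background in all 4 W23 samples were ranked by the rule and fell past rank 200. That their larger ratio lay above that of the chosen probe is therefore fixed by the choice. Of these 7, TC281571 and TC287302 had an other probe at least 2-fold lower on both arrays by processed signals. The probe of TC281571 outside the 200, at rank 220, stood at -3.21 ± 0.19 against -3.34 ± 0.10 for the probe inside (SD, n = 2 arrays), and on the mac1 array they read -0.60 and -0.74. The other probe of TC287302 stood at -1.81 ± 0.28 against -4.33 ± 0.10. The remaining 5 had mean ratios between -0.05 (AJ292961) and 0.12 with loess and offset. For TC304903 the chosen probe stood at -4.95 ± 0.19 and the other at -0.04 ± 0.18, and for TC295218 the values were -3.65 ± 0.06 and 0.12 ± 0.12. By processed signals 4 of these 5 were within 2-fold on both arrays. The other probe of TC301899 went the opposite way to the chosen one, at 2.02 and 1.21. The values above are those of the chosen probes, and why probes under 1 name differ was not tested.

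**Figure D5:**
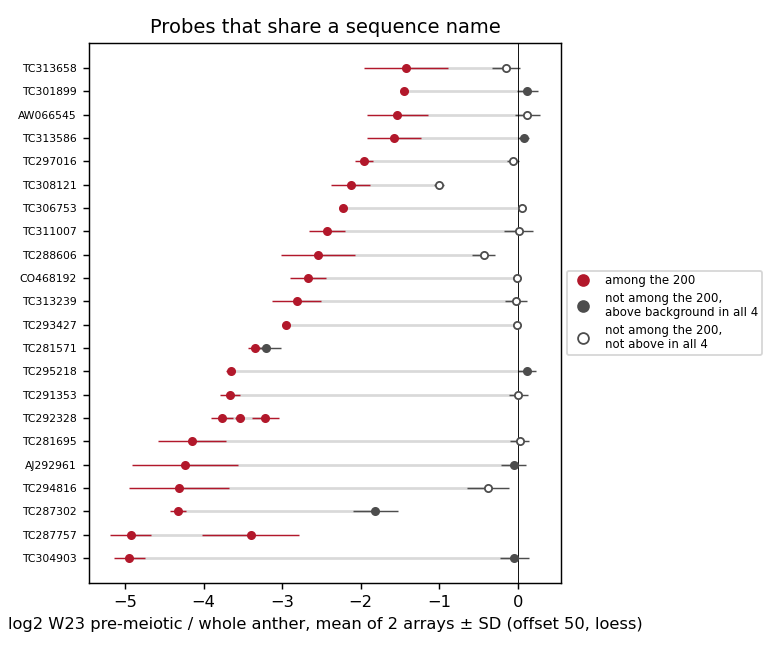
Mean log2 ratio of W23 pre-meiotic cells over whole anthers (x axis, offset 50, loess; bars are the SD of 2 arrays) for the 22 sequence names among the 200 that have more than 1 probe, one row per name. Chosen probes are red, and other probes are filled grey if well above background in all 4 W23 samples and open if not; 17 of the 20 other probes were within 2-fold on both arrays, dim ones included.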

How the data were processed

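The members and lists were chosen with earlier results of these data known. The deposited scanner output came from the software Agilent Feature Extraction, version 10.5.1.1 per the file headers, with intensity columns for the median spot signal, its local background, and processed signals that the software background-subtracted and dye-normalized; the flags for background, saturation and outliers are the software's calls. R 2.13 and limma 3.8.3 are listed in the submitters' processing notes. Intensities on a linear scale fill the authors' deposited table of values; whether its columns were scaled between arrays is unknown, its medians ran from 44.0 to 64.9, and its log2 values correlated with those of the labelled channels at 0.951 to 0.967, which settled their direction. In it 86 members were listed at 0 in at least 1 sample.

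The re-analysis used limma 3.58.1 under R 4.3.3: normexp background correction on median signals with an offset of 50, loess within arrays with control and outlier-flagged spots at weight 0, and Aquantile between arrays for levels. The 8, 11 and 12 flagged probe spots on the arrays of W23 replicates 1 and 2 and mac1 held no member. No member spot was saturated. Ratios are log2, pre-meiotic over whole or mutant over heterozygote. No result was tested: the rule used the W23 contrast, and mac1 has 1 sample per group, so a fixed 2-fold size was used. The number of arrays limits the precision. Named probes were the first 10 and those at the limit by rank, the 5 highest and 5 lowest on the mac1 array, the widest gap between arrays, and sequences with several probes. The planned counts by gene family were left out, because nothing pairs the probes with products. Selection and normalization were tested on simulated data.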

Additional observations from a re-analysis of the deposited data

How the results depend on the processing

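No paired analysis was possible because no result here comes from a test; within an array, samples of the same replicate number already form the ratio. The W23 median log2 ratio of the 200 probes, -2.77, became -4.74 with processed signals, -4.14 without the offset and -3.46 with median centring, and ran from -2.99 to -2.67 when either replicate was left out. The mac1 median, -0.0056, ran from -0.19 with processed signals to 0.018 over probes seen in both channels, under 4 alternatives. The counts at least 2-fold higher and lower in the mutant, 11 and 3, became 34 and 58 with processed signals, 29 and 26 without the offset and 6 and 5 with median centring. Without the offset and with median centring the shares over all probes were not counted, so those counts are not read as particular to the members. The median of heterozygote minus W23 pre-meiotic cells, 0.28, became 1.32 with processed signals, 0.77 without the offset, 0.63 with median centring and -0.36 in the authors' deposited table. For the mutant, 0.26 became 1.02, 0.75, 0.56, -0.27 and, with 75th percentile scaling, 0.44. Whole anthers minus heterozygote, 2.45, became 3.57, 3.40, 2.75, 4.03 in the authors' deposited table and 2.17 with percentile scaling. Whole anthers minus mutant, 2.36, became 3.95, 3.43, 2.72, 3.89 and 2.128. Over the 114 probes that the authors' table leaves, the reported processing gave 0.45, 0.59, 2.88 and 2.75 for these 4 medians. This alternative was chosen after seeing the data. The probes dropped were at 0 in that table in at least 1 sample. Whether leaving them out gave the sign of the first and second medians there was not tested. The cause of the other moves was not tested either. Ranking by the mean ratio kept 179 of the 200 probes, and ranking by loess ratios 117. The gene-family alternatives were not run.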
